A study of Mus musculus with 6 samples.

Results

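The genes of synaptic vesicle fusion were examined in Neuro2a cells, a mouse neuroblastoma line, with and without D-serine, the D-form of the amino acid serine, which acts with glutamate at NMDA receptors. Members were chosen by gene symbol alone, as the synaptotagmins, syntaxins and syntaxin-binding proteins, VAMPs, SNAP-25 relatives, synapsins, SV2 proteins, complexins, Rab3 proteins, Munc13 proteins, Nsf and Syp. This pattern matched 71 of the 24391 genes in the table. One of them, Snap91, encodes the clathrin adaptor AP180 and is no SNARE.

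The control group was 3 libraries from cells given vehicle, and the D-serine group was 3 libraries from cells given 5 mM D-serine. All cells were grown in D-MEM with 10% serum, were then moved to a medium that the labels write as D-MEM(-SG), also with serum, and were taken for RNA after 18 h. Poly(A) RNA was sequenced, with total counts of 32518483 to 40024265 per library. The labels do not say that the 3 libraries of a group came from separate cultures, so the p-values measure the spread between these samples, which may be technical.

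Vesicle fusion is driven by SNARE proteins, which zip together from the vesicle (VAMP) and from the target membrane (a syntaxin and a SNAP-25 relative). Munc18 and Munc13 proteins guide the assembly, tomosyn competes for it, complexin clamps and activates the assembled complex, and synaptotagmins couple it to calcium. The ATPase NSF then takes the spent complex apart for reuse. Neuroblastoma cells descend from the sympathoadrenal lineage, whose cells release transmitter and peptides from small and dense-core vesicles. Other syntaxins and VAMPs serve traffic through the endoplasmic reticulum, Golgi and endosomes in every cell.

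The labelled cell type was checked against marker genes. Of 8 sympathoadrenal markers, 7 were expressed highly enough to be tested, and the summed level of the list was 616 to 631 CPM (counts scaled to a common library size) in control and 616 to 642 CPM with D-serine. Of 6 neuronal markers, 4 were tested and the summed level of the list was 776 to 857 CPM in control and 897 to 993 CPM with D-serine, without overlap. Within this list only Tubb3, a neuronal tubulin, passed the test (490 ± 24.0 and 583 ± 37.0 CPM, SD, n = 3 each, edgeR adjusted p = 0.0148). Stmn2 (154 ± 5.24 and 169 ± 7.30 CPM, edgeR adjusted p = 0.0717) did not. Gap43 (170 ± 12.1 and 186 ± 8.14 CPM, 0.151) overlapped between the groups, and Dcx was at most 1.09 CPM in any library. Nefl and Nefm, neurofilament genes, were at most 0.0544 and 0.161 CPM in any library. Summed markers of astrocytes, of leukocytes and microglia, and of fibroblasts were between 0.0496 and 1.22 CPM in every library, those of endothelium between 3.13 and 4.03 CPM and those of oligodendrocytes between 15.1 and 16.5 CPM, most of the last from Mbp. The part of the higher neuronal marker sum, most of which is Tubb3, in the results below was not tested. In bulk RNA, a different number of cells of a type and a different amount of RNA per cell cannot be told apart.

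The repertoire of the line came first. Of the 71 members, 57 were expressed highly enough to be tested and 14 were not. Levels of different genes are compared per length, as FPKM (CPM per kilobase of exon). The most abundant member was Vamp3 (cellubrevin, a VAMP of recycling endosomes), at 78.0 ± 2.18 FPKM (SD over all 6 libraries). Its lowest library lay above the highest library of Snap25, the neuronal target-membrane SNARE, which followed at 55.4 ± 1.73 FPKM. Next came Stx12 (syntaxin of recycling endosomes, 53.1 ± 1.44), Cplx1 (52.4 ± 4.90), Syt4 (50.4 ± 1.31) and Nsf (48.4 ± 2.63), each overlapping its neighbour in this order. Nsf did not overlap the next gene, Syt6 (41.0 ± 1.92 FPKM), and from there to Syt11 at rank 15 neighbours overlapped throughout.

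**Figure D1:**
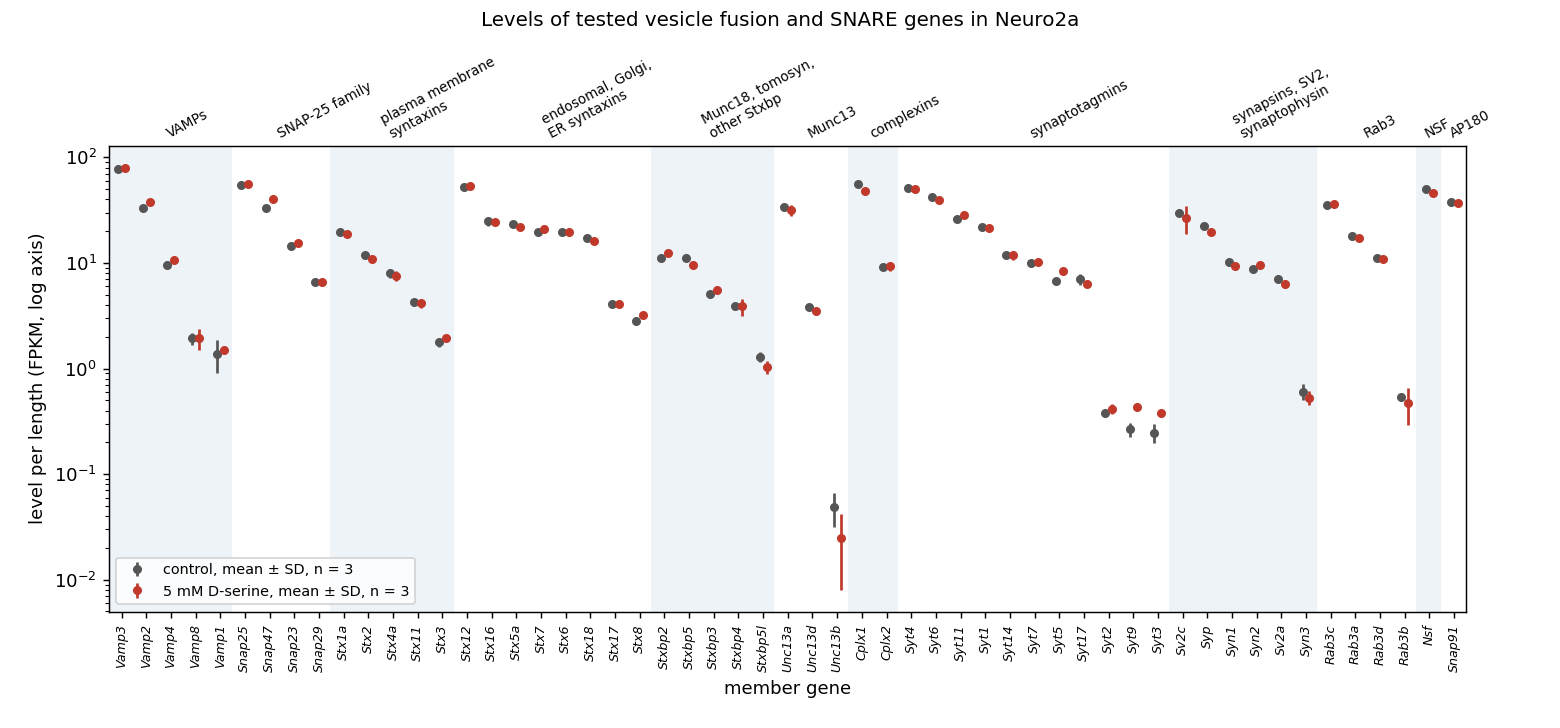
Mean level per length (FPKM, log axis) of 55 of the 57 tested members in control (grey) and D-serine libraries (red), with SD over 3 libraries, grouped by role. Vamp3 is highest. In some roles, such as the Munc13 genes and the complexins, 1 member stands far above the rest, and in others, such as the synaptotagmins, levels are graded. The groups lie close together for most members.

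Within most roles a few genes held most of the message. Of the summed FPKM of the 7 VAMPs, Vamp3 held 61.5% ± 1.75 and Vamp2 (synaptobrevin 2, the main vesicle SNARE of neurons) 27.8% ± 1.67 (SD over 6 libraries). Of the 4 SNAP-25 relatives, Snap25 held 48.7% ± 2.03 and Snap47 32.4% ± 2.33. Of the 4 Munc13 genes, Unc13a, the form of most central synapses, held 89.8% ± 0.817, and Unc13d, known from granule release of blood cells, held 10.1% ± 0.818. Cplx1 held 84.9% ± 1.71 of the complexins and Cplx2 15.0% ± 1.73.

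The plasma membrane syntaxins were led by Stx1a (40.5% ± 1.58) and followed by Stx2 at 23.9% ± 1.21. The 8 syntaxins of endosomes, Golgi and endoplasmic reticulum were more even, with Stx12 at 32.4% ± 0.579, Stx16 at 15.0% ± 0.898 and Stx5a at 13.8% ± 0.681. Among the Rab3 GTPases, which tether vesicles, Rab3c held 55.0% ± 1.63 and Rab3a, the form best known in brain, 27.3% ± 1.59. Sv2c held 37.3% ± 4.67 of the class of synapsins, SV2 proteins and synaptophysin, and Syp (synaptophysin) 27.8% ± 2.45, an order that was reversed in D-serine replicate 1 (28.3% and 31.6%). Of the 17 synaptotagmins, Syt4 held 28.4% ± 0.739, Syt6 23.1% ± 0.902, Syt11 15.3% ± 0.791 and Syt1, the calcium sensor of fast release, 12.2% ± 0.346.

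The 14 untested members had at most 35 counts over the 6 libraries together. Syt16, Stxbp6 and Vamp7 had 0 counts of 222850489, which allows a level of up to 0.0135 CPM by counting error alone. The row of Vamp7, a VAMP of late endosomes and lysosomes, lies on a sequence named X_random in the table, so its 0 speaks only for that copy. The others were Syt8, Syt10, Syt12, Syt13, Syt15, Stx19, Sv2b, Unc13c, Cplx3, Cplx4 and Vamp5. Sv2b, an SV2 form of brain synapses, had 4 counts, all in 1 library.

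The comparison of D-serine with control asked which of these transcripts differ. Snap47 and Syt5 rose and Stxbp5 (tomosyn 1), Cplx1 and Nsf fell, from Nsf, which fell by 9.20%, to Syt5, which rose by 25.7%. Thus 5 of the 57 tested members passed the edgeR quasi-likelihood test at an adjusted p under 0.05 over all genes (8.77%), beside 1302 of 13366 genes tested (9.74%), so the members' share was near the background. Higher with D-serine were 2 members, against a background of 4.84%, and lower were 3, against 4.90%. Under upper quartile scaling the split over all genes was 914 higher and 412 lower, and over the members 3 and 2. The groups' libraries did not overlap in 21 tested members (36.8%), against 32.9% of all tested genes, and an unadjusted p under 0.05 was reached by 15 members (26.3%), against 28.2%. The median log2 fold change of the tested members was -0.020 (26 above 0 and 31 below), beside 0.0053 for all tested genes, and under upper quartile scaling 32 members were above 0 and 25 below. In the reported fit the median size of a change was 0.11 for the members and 0.12 for all.

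The count depended on single libraries. It fell to 0 without control replicate 1 and without control replicate 2 in the edgeR test, where 10 and 13 members had an unadjusted p under 0.05 and 0.921% and 0.501% of all genes passed. Without the control of number 3 it was 2, and the D-serine fits lacking replicate 3 or replicate 1 gave 2 and 7. With each library's trend on gene length removed it was 10.

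**Figure D2:**
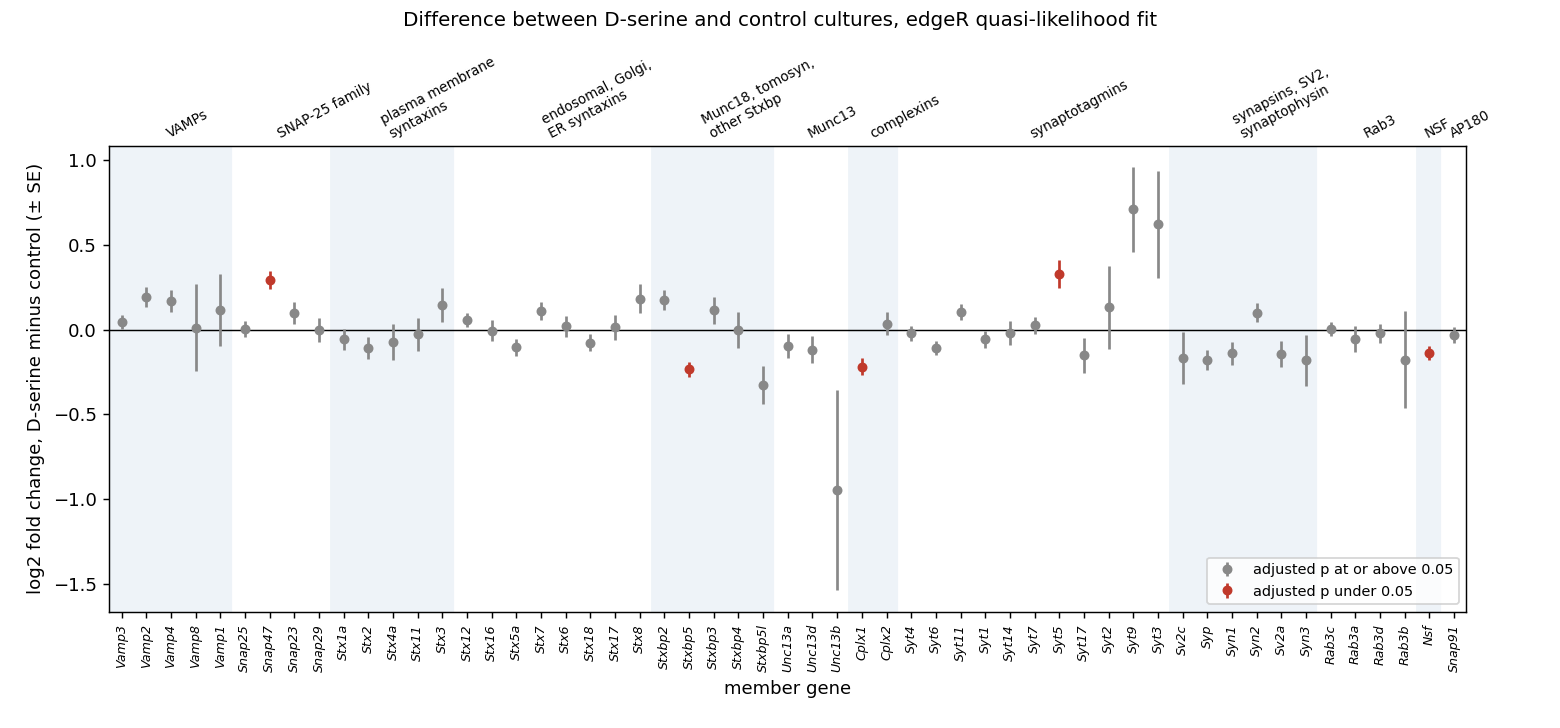
Log2 fold change (D-serine minus control) with its standard error for 55 of the 57 tested members, grouped by role, with the 5 members past the threshold in red. Snap47 and Syt5 lie above 0, Stxbp5, Cplx1 and Nsf below, and the widest bars belong to genes of low count such as Unc13b, Syt3 and Rab3b.

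Among the SNAREs themselves, Snap47 was the only member past the threshold. Snap47 (chromosome 11, 59220652 to 59263458, minus strand, as deposited), a widely expressed SNAP-25 relative that lacks the membrane-anchoring cysteines of SNAP-25, was at 60.1, 58.9 and 64.4 CPM in control replicates 1 to 3. With D-serine it was at 74.2, 72.9 and 77.4 CPM. Every D-serine library was above every control library. The mean rose from 61.1 ± 2.89 to 74.8 ± 2.31 CPM (SD, n = 3 each group). The log2 fold change of Snap47 was 0.29 ± 0.052 (SE), at an edgeR adjusted p of 0.0098. Of the 16 alternative settings, 14 kept Snap47 past the threshold, and it was lost without control replicate 1 (adjusted p = 0.0557) and without control replicate 2 (0.0608).

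Its relatives did not pass. Snap25 was at 124 ± 4.71 CPM in control against 124 ± 3.90 CPM under D-serine (log2 fold change 0.0055, SE 0.047), so the share of Snap47 in the summed FPKM of the 4 relatives was 30.3% ± 1.02 in control and 34.4% ± 0.308 with D-serine. Snap23, the ubiquitous form, had a log2 fold change of 0.098 (SE 0.065), and Snap29 of 0.00018 (SE 0.071).

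None of the 5 tested VAMPs passed. All 5 had a log2 fold change above 0 in the reported fit, as did 51.5% of all tested genes and all 4 SNAP-25 relatives. In each of the 16 alternatives, which reuse the same libraries, 4 or 5 of them did. Vamp8 changed sign in 5 of the 16 and Vamp1 in 1. Vamp2 was at 75.8, 71.4 and 66.4 CPM in control against 84.5, 84.0 and 76.0 CPM under D-serine. The lowest D-serine library lay just above the highest control library. Its log2 fold change was 0.19 (SE 0.060, edgeR adjusted p = 0.0586), and it was past the threshold in 6 of the 16 alternatives, among them upper quartile scaling, library totals and both length corrections. Vamp3 had a log2 fold change of 0.045 (SE 0.043, edgeR adjusted p = 0.527).

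None of the 14 tested syntaxins passed. Stx1a was at 40.6 ± 0.677 CPM in control against 39.0 ± 2.83 CPM under D-serine, Stx2 had a log2 fold change of -0.11 (SE 0.066) and Stx3, the largest in size at the plasma membrane, of 0.15 (SE 0.100). Of the syntaxins of endosomes, Golgi and endoplasmic reticulum, Stx12 had 0.057 (SE 0.042), Stx16 of the trans-Golgi network -0.0055 (SE 0.062), and Stx8 of late endosomes, the largest in size, 0.18 (SE 0.087, edgeR adjusted p = 0.185). Stx18 shares 577 exonic bases with Nsg1 on the opposite strand, and since the strand setting of the counting is not stated its counts are uncertain. The same holds for the smaller exonic overlaps of Rab3b (317 bases), Snap29 (60), Rab3a (38) and Syn1 (11) with genes on the opposite strand.

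The proteins that guide or limit SNARE assembly included 1 gene past the threshold, Stxbp5 (chromosome 10, 9475345 to 9620838, minus strand). Its product, tomosyn 1, binds a syntaxin and SNAP-25 in place of the vesicle SNARE and thereby limits release. Stxbp5 was at 103, 102 and 99.2 CPM in control replicates 1 to 3 and 82.9, 88.5 and 86.7 CPM with D-serine. The groups did not overlap. It fell from 101 ± 1.83 to 86.1 ± 2.86 CPM (SD, n = 3 each group). For Stxbp5 this was a log2 fold change of -0.23 ± 0.046 (SE), at an edgeR adjusted p of 0.0127. Stxbp5 is long, at 9074 exonic bases, and with each library's length trend removed its log2 fold change was -0.11 and no longer past the threshold (adjusted p = 0.0930). Nor was it past the threshold without control replicate 1 (0.0600), without control replicate 2 (0.0691) or with a block for replicate number. Of the 16 alternatives, 11 kept Stxbp5 past the threshold.

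The second tomosyn gene, Stxbp5l, was at 16.9, 15.9 and 13.7 CPM in control against 10.4, 13.7 and 13.0 CPM under D-serine. The closest libraries of the groups were almost equal (log2 fold change -0.33 ± 0.11 SE, adjusted p = 0.0773 by edgeR). Stxbp2 (Munc18-2, of epithelial and blood cell secretion) had a log2 fold change of 0.18 (SE 0.060, edgeR adjusted p = 0.0795).

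None of the 3 tested Munc13 genes passed. Unc13a was at 286, 267 and 251 CPM in control against 219, 274 and 259 CPM under D-serine, so the groups overlapped and the lowest value was that of D-serine replicate 1. Its log2 fold change was -0.097 (SE 0.072), and 0.011 with the length trend removed. Unc13d had -0.12 (SE 0.080). Unc13b had few counts, at 0.313 ± 0.110 CPM in control against 0.160 ± 0.109 CPM under D-serine (log2 fold change -0.95, SE 0.59).

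Cplx1 (chromosome 5, 108947573 to 108979046, minus strand), the complexin that held most of its family's message, was at 121, 118 and 130 CPM in control replicates 1 to 3. With D-serine it was at 112, 104 and 102 CPM. The groups did not overlap. It fell from 123 ± 6.20 to 106 ± 4.94 CPM (SD, n = 3 each group). This gave a log2 fold change of -0.22 ± 0.052 (SE), at an edgeR adjusted p of 0.0230. It was past the threshold in 11 of the 16 alternatives and reached a highest adjusted p of 0.0955, without control replicate 3. It was also lost without control replicate 1 (0.0768), control replicate 2 (0.0657) and D-serine replicate 3 (0.0906), and with a block for replicate number. Cplx2, at 44.9 ± 1.55 and 45.9 ± 4.30 CPM, had a log2 fold change of 0.034 (SE 0.068).

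Nsf (chromosome 11, 103683097 to 103815370, minus strand), whose product disassembles SNARE complexes, was at 192, 189 and 191 CPM in control against 170, 177 and 172 CPM under D-serine. The control libraries lay close together and above all D-serine libraries. It fell from 191 ± 1.31 to 173 ± 3.50 CPM (SD, n = 3 each group). On the log2 scale Nsf changed by -0.14 ± 0.041 (SE), at an edgeR adjusted p of 0.0476. This smallest of the 5 changes was past the threshold in 8 of the 16 alternatives. It was lost under upper quartile scaling (0.0980), with library totals (0.0955), without a filter (0.0527) and with a block for replicate number. Leaving out any of 4 libraries also lost it, namely the controls 1, 2 and 3 (0.147, 0.149 and 0.115) and D-serine replicate 3 (0.136).

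Of the 11 tested synaptotagmins, Syt5 passed. Syt5 (chromosome 7, 4491367 to 4498169, minus strand), a calcium-binding synaptotagmin of secretory vesicles, was at 12.3, 11.3 and 11.8 CPM in control against 15.4, 14.8 and 14.3 CPM under D-serine. All D-serine libraries were above all control libraries. It rose from 11.8 ± 0.532 to 14.8 ± 0.539 CPM (SD, n = 3 each group). In log2 terms Syt5 changed by 0.33 ± 0.081 (SE), at an edgeR adjusted p of 0.0258. It was past the threshold in 11 of the 16 alternatives. It was lost without control replicate 1 (0.0687), 2 (0.113) or 3 (0.0695), without D-serine replicate 3 (0.0626) and with a block for replicate number.

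The abundant synaptotagmins did not pass. Syt4, found on dense-core vesicles, was at 198 ± 7.41 and 195 ± 1.94 CPM (log2 fold change -0.022, SE 0.043) and Syt6 at 226 ± 3.07 and 210 ± 7.31 CPM (-0.11, SE 0.043, edgeR adjusted p = 0.121). The calcium sensors Syt1 and Syt7 had log2 fold changes of -0.058 (SE 0.052) and 0.025 (SE 0.053). Syt9, a fast calcium sensor close to Syt1, had the largest fold change of the class but few counts, at 0.992, 0.863 and 1.18 CPM in control against 1.68, 1.66 and 1.64 CPM under D-serine. The groups did not overlap, and the difference missed the threshold (log2 fold change 0.71 ± 0.25 SE, adjusted p = 0.0873 by edgeR).

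**Figure D3:**
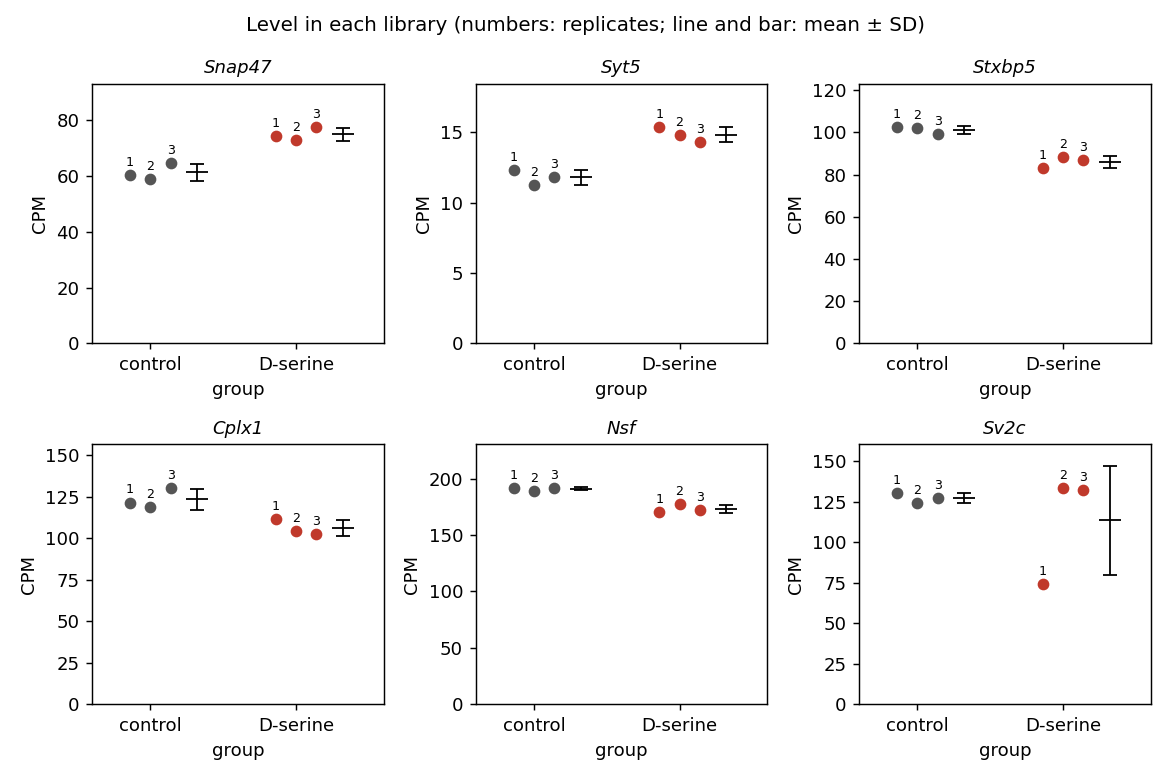
Level in CPM (axis from 0) of the 5 members past the threshold and of Sv2c in each control (grey) and D-serine (red) library, with the mean and SD of each group. The groups do not overlap for the first 5 genes, whereas Sv2c is set apart by D-serine replicate 1 alone.

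Of the 6 tested genes for synapsins, SV2 proteins and synaptophysin, none passed. Syp was at 54.7, 53.9 and 56.7 CPM in control against 48.5, 45.3 and 52.0 CPM under D-serine. The groups did not overlap (log2 fold change -0.18 ± 0.059 SE, adjusted p = 0.0692 by edgeR), and the gene was past the threshold with the length trend removed (-0.19, adjusted p = 0.0222). Sv2c, a vesicle glycoprotein, was at 131, 124 and 127 CPM in control, and with D-serine at 74.5 CPM in replicate 1 but 134 and 132 CPM in replicates 2 and 3. Its log2 fold change was -0.17 (SE 0.15), and 0.064 without D-serine replicate 1. Syn3, the largest in size, was at 7.14 ± 1.24 and 6.28 ± 0.943 CPM (-0.18, SE 0.15).

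No Rab3 gene passed. Rab3c was at 305, 305 and 301 CPM in control against 292, 314 and 307 CPM under D-serine (log2 fold change 0.0026, SE 0.042). With 8499 exonic bases it is long, and with the length trend removed its log2 fold change was 0.12 and past the threshold (edgeR adjusted p = 0.0180). Rab3a had -0.055 (SE 0.076) and Rab3b, at 1.77 ± 0.134 and 1.57 ± 0.594 CPM, -0.18 (SE 0.29). The clathrin adaptor gene Snap91 was at 165 ± 5.71 and 161 ± 6.70 CPM (-0.031, SE 0.047).

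Gene length moved with the groups. The slope of a library's deviation on log2 length was 0.0152 to 0.0356 in control and -0.0717, 0.0058 and -0.0040 in D-serine replicates 1 to 3, in log2 CPM. Across the 57 tested members, exonic length and log2 fold change had a Spearman's rho of -0.23, beside -0.29 across all 13366 tested genes. These points share their 6 libraries and are not independent. Among the members it was -0.029 without D-serine replicate 1 and 0.082 with the trend removed. D-serine replicate 1 was the lowest of the 6 libraries in 17 of the 57 members and the highest in 13, more often on both counts than any other library.

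**Figure D4:**
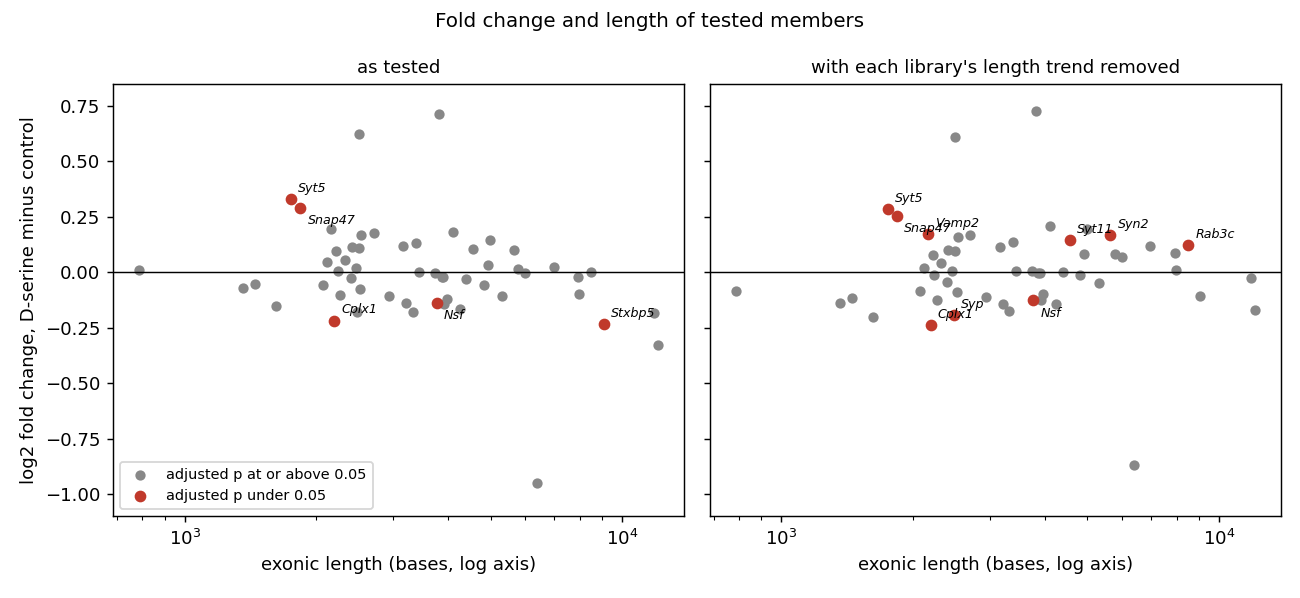
Log2 fold change (D-serine minus control) against exonic length in bases (log axis) for 55 of the 57 tested members, as tested (left) and with each library's length trend removed (right), members past the threshold in red. Of the 5 members past the threshold on the left, 4 are also past it on the right, without Stxbp5, and 5 others drawn join them.

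Among the members that newly passed with the length trend removed were Vamp2, Syp, Rab3c, Syt11 and Syn2. The effect of each setting on each gene is drawn for 12 members past the threshold at least once.

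**Figure D5:**
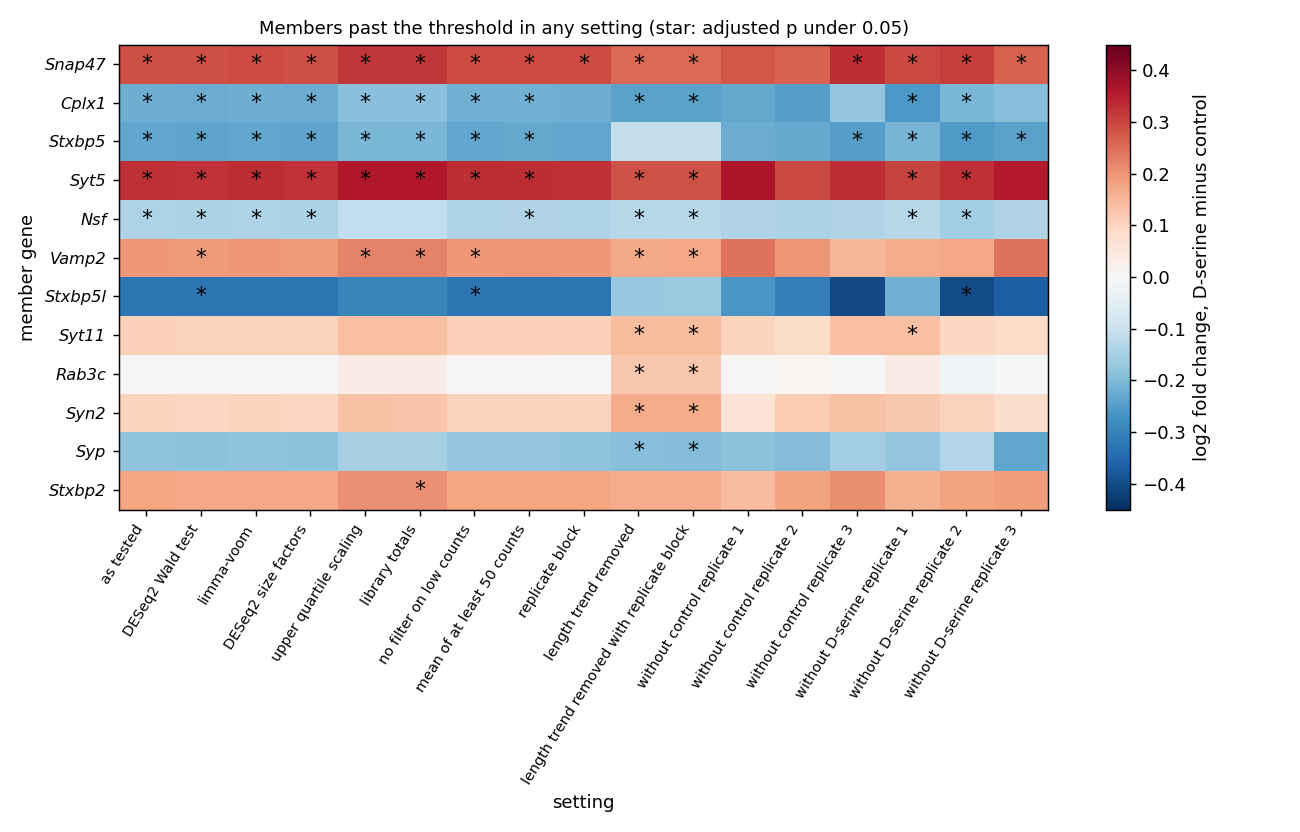
Log2 fold change (colour) of 12 members with an adjusted p under 0.05 (star) in at least 1 of 17 settings, which are the reported test and its 16 alternatives. Snap47 carries the most stars, and the columns without control replicate 1 and without control replicate 2 carry none.

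Promoter sequences of 4 of the 5 genes past the threshold were in the RefSeq table (GRCm38.p6), which matched 56 of the 71 members. They are shown because a GC box, the short element bound by Sp family factors, is the commonest of the 6 motifs searched. Each is the 250 bases before the annotated start, 5′ to 3′ on the gene's strand, with GGGCGG on either strand in capitals.
Snap47, chr11:59450035-59450284, minus strand: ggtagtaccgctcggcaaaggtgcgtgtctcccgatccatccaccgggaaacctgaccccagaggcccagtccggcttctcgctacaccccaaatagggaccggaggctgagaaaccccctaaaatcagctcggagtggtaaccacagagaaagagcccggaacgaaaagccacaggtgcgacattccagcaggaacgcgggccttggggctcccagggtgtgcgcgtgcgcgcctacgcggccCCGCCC
Cplx1, chr5:108550028-108550277, minus strand: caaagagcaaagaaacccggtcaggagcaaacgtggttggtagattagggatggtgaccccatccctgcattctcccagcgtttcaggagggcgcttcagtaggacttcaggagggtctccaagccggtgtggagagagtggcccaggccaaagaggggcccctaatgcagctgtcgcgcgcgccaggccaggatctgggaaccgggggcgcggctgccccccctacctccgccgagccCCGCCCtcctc
Stxbp5, chr10:9901041-9901290, minus strand: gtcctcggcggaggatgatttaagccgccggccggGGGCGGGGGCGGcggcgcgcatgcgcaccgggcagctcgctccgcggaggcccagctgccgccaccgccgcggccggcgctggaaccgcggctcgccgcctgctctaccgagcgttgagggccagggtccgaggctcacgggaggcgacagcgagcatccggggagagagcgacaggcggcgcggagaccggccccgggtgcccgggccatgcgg
Nsf, chr11:103954057-103954306, minus strand: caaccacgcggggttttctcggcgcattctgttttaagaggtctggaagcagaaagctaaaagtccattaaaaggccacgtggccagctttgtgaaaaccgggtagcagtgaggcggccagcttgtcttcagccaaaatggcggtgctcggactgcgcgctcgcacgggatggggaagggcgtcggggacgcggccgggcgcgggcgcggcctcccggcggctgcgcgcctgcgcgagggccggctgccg
Counted back from the start to its first base, the GC box lies at 6 bases in Snap47 and at 11 in Cplx1, both on the opposite strand, and at 215 and 209 in Stxbp5. In Nsf these letters are not in this window. The counts that follow use only the first listed start of each gene. There, 33 of the 46 tested members with a sequence held GGGCGG (71.7%), beside 58.9% of the promoters of 10103 tested genes and 32.9% of 27025 promoters in all. Median GC content of these windows was 61.0% for the tested members and 60.0% for all tested genes. The CRE, TGACGTCA, was in 2 of the 46 (4.35%, against 2.95%), namely Syn1 and Stxbp3, and TATAAA in 2 (4.35%, against 6.23%). TGACGCAA was in 1 (2.17%, against 0.851%), TTCAGCACC, the left part of the element of the neuronal repressor REST, in 1 (2.17%, against 0.297%), namely Syn1, and GGACAG in 7 (15.2%, against 19.8%). Later listed starts were not counted, although GGGCGG occurs there in Stx16 and Vamp4, GGACAG in Stx16 and Stx5a, and TATAAA in Stx2. Both strands were searched in each case, and a match is a description of letters, not of a bound site.

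Genes that work beside the members were read from 5 further lists of 106 genes, of which 92 were tested. Of these, 4 rose and 3 fell, which is 7.61% against the background of 9.74%. The split was 7 higher and 1 lower under upper quartile scaling, and the same with library totals. None of the 92 passed in edgeR without control replicate 1 or without control replicate 2 (24 and 20 had an unadjusted p under 0.05), 1 passed when either replicate 3 was left out, and 11 and 14 passed without the first and without the second D-serine library. Among the other SNAREs, SM proteins and SNAP adaptors, Bet1, a SNARE of traffic from the endoplasmic reticulum to the Golgi, was the 1 of 20 tested genes past the threshold (52.9 ± 3.46 and 61.7 ± 4.51 CPM, SD, n = 3 each, log2 fold change 0.22, edgeR adjusted p = 0.0493). Bet1 was past it in 8 of the 16 alternatives and missed it with limma-voom (0.0534), with DESeq2 size factors (0.0514) and without D-serine replicate 1 (0.0586), among others. Among active zone and tethering genes it was Snapin, a SNAP-25 binding protein, 1 of 25 (3.79 ± 0.0692 and 5.65 ± 0.759 CPM, 0.58, adjusted p = 0.0257, past it in 11 of the 16). Among other vesicle membrane proteins it was Syngr2, a synaptogyrin, 1 of 12 (30.5 ± 1.02 and 35.5 ± 1.62 CPM, 0.22, adjusted p = 0.0398, past it in 8 of the 16), which missed it with the length trend removed (0.0560).

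Of 12 tested genes of dense-core vesicles, Scg2, the granin secretogranin 2, rose from 235 ± 11.5 to 275 ± 7.57 CPM (0.23 in log2, SD over n = 3, edgeR adjusted p = 0.0142), and Ptprn, a membrane protein of the granule, fell from 82.9 ± 1.17 to 74.5 ± 1.14 CPM (-0.15, adjusted p = 0.0495). Scg2 was past the threshold in 13 of the 16 alternatives and Ptprn in 7, and Ptprn missed it under upper quartile scaling (0.0957), with library totals (0.0936) and without a filter (0.0615). Of 23 tested genes of clathrin endocytosis, the scaffold Itsn1 fell from 195 ± 4.28 to 169 ± 9.13 CPM (-0.20, adjusted p = 0.0222) and Ap2a1, a subunit of the adaptor AP-2, from 187 ± 5.13 to 168 ± 6.75 CPM (-0.16, adjusted p = 0.0469). Each was past the threshold in 9 of the 16 alternatives. With the length trend removed the log2 fold change of Itsn1 was 0.014 (adjusted p = 0.916), and Ap2a1 missed the threshold under upper quartile scaling (0.0820) and with library totals (0.0831). In that list 20 of 23 log2 fold changes were below 0 (median -0.12), whereas 51.5% of all tested genes were above 0. The median of the list was -0.066 with the length trend removed and -0.067 without D-serine replicate 1. Of the other lists, active zone and tethering genes had 20 of 25 below 0 and other vesicle membrane proteins 8 of 12. Under upper quartile scaling these were 17 of 25 and 6 of 12, and with the length trend removed 15 of 25 and 8 of 12. Above 0 were 15 of 20 other SNAREs, SM proteins and SNAP adaptors and 8 of 12 dense-core vesicle genes (median 0.012). With the length trend removed these were 14 of 20 and 6 of 12. For the dense-core vesicle genes it was 5 of 12 without control replicate 2 and 9 of 12 under upper quartile scaling.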

How the data were processed

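Raw counts, which the authors deposited in 1 table with 1 column a library, stand beside exon lengths, in the layout of featureCounts per the file headers. HISAT2, featureCounts, Trim Galore, bcl2fastq and DESeq2, and the names GRCm38 and mm10, stand in the submitters' processing notes without versions or roles. The library kit was a stranded one per the labels' protocols, but how strand and multi-mapping reads were treated in counting is not given in the sources used here. Of 71 members, 2 had the same start in a GRCm38.p6 RefSeq table, so coordinates of genes are printed as deposited, in an unnamed build, and those of promoters are GRCm38.p6.

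Columns named vehicle were taken as the equally numbered control samples, since these are labelled as given vehicle. Counts were tested with edgeR 4.0.16 in R 4.3.3 (filterByExpr, TMM, quasi-likelihood F test, no covariate), with two-sided p-values adjusted by Benjamini and Hochberg over 13366 genes and a threshold of 0.05. The SE is the size of the log2 fold change over the square root of F. CPM uses the TMM-scaled total of the tested genes, and FPKM is CPM per kilobase of deposited exon length. The fit was also run on simulated data, but the outcome is not reported here and is not used as support. Exon overlaps on either strand were found with bedtools 2.31.1.

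Libraries of a group differed by a chi-square of 3.88 to 17.7 per degree of freedom, above sampling noise, so none was taken as a second deposit of another library, which does not show that they came from separate cultures. D-serine replicate 1 differed most.

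Alternatives were DESeq2 1.42.0, limma-voom (limma 3.58.1), other scalings, other filters, a replicate block, removal of each library's trend on log2 length (natural spline, 5 degrees of freedom, by offsets) and leaving out each library. The members and lists were chosen with earlier results of these data known. Named were all members past the threshold and, in each role, the 2 highest by FPKM and the tested member with the largest fold change, and up to 3 genes past the threshold in each further list. Other members named for a low adjusted p, a family share or a change under an alternative were chosen after their values were seen. The lists came from general knowledge. The values of some members are not reported here.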

Additional observations from a re-analysis of the deposited data

How the results depend on the processing

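The 16 alternatives gave 0 to 10 members past the threshold, against the 5 reported. DESeq2 gave 8 (5 lower), library totals 4 higher members, and removal of the length trend 10 members (6 higher) with 2043 genes in all, and again 10 (6 higher) together with the replicate block. Fits that left out 1 library gave 0 to 7 members, 0 to 3 of them higher and 0 to 4 lower, and 68 to 1699 genes over all. In the fits without control replicate 1 or 2, where no member passed, only edgeR was run.

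Whether replicate numbers pair the samples is not known. The correlation of deviations of same-numbered libraries was -0.069, 0.020 and -0.019, and only for number 2 did a control library correlate best with its own number. These deviations are taken within groups of 3 libraries, so they cannot decide it. With the replicate block 298 genes passed, among them 1 member, Snap47, which was higher, and 0 lower, with 13 members at an unadjusted p under 0.05 in edgeR. Of the 92 genes of the further lists 0 passed with the block, and 24 had an unadjusted p under 0.05.

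None of the 5 members past the threshold changed sign in any alternative. Of the named members not past the threshold, some did, many of them with values near 0, though Rab3b and Sv2c were further from 0. Snap29 changed sign in 6 of the 16 alternatives (-0.059 to 0.045 over the 16) and Syt7 in 1 (-0.016). With the length trend removed, alone and with the block, the log2 fold changes were 0.00046 and 0.0010 for Snap91, 0.0066 and 0.0082 for Stx16, 0.011 and 0.011 for Unc13a, and -0.014 and -0.014 for Snap25. Under upper quartile scaling and with library totals they were 0.024 and 0.023 for Stx16 and 0.0078 and 0.0072 for Syt4. For Rab3c DESeq2 gave -0.00076 and its size factors -0.00075. Over the fits without 1 library the ranges were -0.054 to 0.0023 for Snap91, -0.019 to 0.11 for Cplx2, -0.047 to 0.068 for Stx16, -0.020 to 0.032 for Rab3c, -0.12 to 0.00050 for Rab3a, -0.40 to 0.11 for Rab3b, -0.023 to 0.032 for Snap25, -0.041 to 0.0099 for Syt4 and -0.30 to 0.064 for Sv2c. Sv2c changed sign without D-serine replicate 1 alone. The cause was not tested. Unc13b, Syt2, Syt3, Syt9, Rab3b and Vamp8 had means below 2 CPM in both groups, and how much of their spread is counting error was not tested.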

Other observations

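Sv2c was singled out after its values were seen. In D-serine replicate 1 it lay 0.80 below the mean of the other 5 libraries in log2 CPM, and of the 2203 tested genes with at least its mean level 1, Sv2c itself, lay as low there. In the other 5 libraries Sv2c deviated by 0.089 to 0.21, each from a mean that includes the low D-serine replicate 1, which raises these values. Sv2c has 4252 exonic bases, beside a median of 3386 for the tested members, and with the length trend removed its log2 fold change was -0.14.

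One share within a role is given although its gene did not pass the test. Stxbp2 held 14.9% ± 0.408 of the summed FPKM of the 7 syntaxin-binding genes in control and 17.9% ± 0.557 with D-serine (SD, n = 3 each). This share is a description, was chosen after its values were seen and was not tested.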
